A study of Mus musculus with 12 samples.

Results

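The genes described here encode proteins that sort membrane cargo through endosomes and tether vesicles to the plasma membrane. They were chosen by name alone: every gene of the deposited count table whose mouse symbol starts with Vps, Chmp or Exoc, or with Snx followed by a digit, pseudogenes left out. The rule took 64 of the 9073 genes, of which 26 are Vps, 9 Chmp, 9 Exoc and 20 Snx genes, and all 64 are described, with no filter on low counts. In the annotation table used for names 87 symbols fit the rule, and the remaining 23, among them Exoc2, Vps54, Vps33b and the lipid transfer genes Vps13a, Vps13b, Vps13c and Vps13d, were not analysed here.

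RNA came from dorsal root ganglion (DRG) sensory neurons of adult mice of genotype RPL22HA+/+;Advillin-Cre+, the RiboTag system. In these animals a Cre recombinase under the Advillin promoter, which is active mainly in sensory neurons, switches on a ribosomal protein L22 with a haemagglutinin (HA) tag. An anti-HA immunoprecipitation (IP) then keeps RNA bound to tagged ribosomes, and Input is the lysate RNA without that step. The 4 groups were IP and Input after AAV-shGpr151, a viral hairpin named for the orphan receptor gene Gpr151, and IP and Input after AAV-control. All groups share the tagged allele, the Cre and, per the series' design text, a sciatic nerve injury given before culture to precondition the neurons. That text speaks of cultured neurons whereas the extraction protocol speaks of fresh ganglia, and the labels do not say which holds or whether samples of a group are from separate animals.

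As background, endosomal cargo meets several machines in turn. ESCRT complexes (Vps28, Vps37, Vps25, Vps36 and the Chmp proteins) bend membrane away from the cytosol, sort ubiquitinated receptors into multivesicular bodies and are pulled apart by the Vps4 ATPases, while retromer, retriever and the sorting nexins (Snx) send other cargo back to the plasma membrane or the Golgi. HOPS and CORVET tether endosomes and lysosomes before they fuse, GARP and EARP tether endosome-derived carriers, and the exocyst tethers secretory vesicles at sites of membrane addition such as the growing axon.

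Promoter sequences of 2 kinds are shown because the data return to their genes below. Sequences are from RefSeq on GRCm38.p6, a build other than that of the counts, and 48 of the 64 genes had an entry. The 250 bases before the start site were searched on both strands. The GC box GGGCGG lay in 29 of these 48 promoters (60.4%), against 32.9% of all 27025 promoters searched. All promoters here are not limited to genes of the count table, so these shares do not set the 64 genes apart from other measured genes. The CCAAT box was in 11 of 48 (22.9%, all promoters 34.5%) and the TATA box TATAAA in 1 of 48 (2.08%, all promoters 13%). The E-box CACGTG, the core of the element bound by the lysosomal regulator TFEB, was in 6 of 48 (12.5%, all promoters 6.05%), and its flanked form TCACGTGA, which contains CACGTG, in 3 of 48 (6.25%, all promoters 0.803%). Those 3 were Vps16 and Vps33a, core subunits of HOPS and CORVET, and Vps26a, a retromer subunit. In the stretches below, capitals mark CACGTG, and Vps33a holds it 2 times. They lie at chr2:130424260-130424319 on the plus strand (Vps16), chr5:123573016-123573075 on the minus strand (Vps33a) and chr10:62486955-62487014 on the minus strand (Vps26a), each 5′ to 3′ along the gene.
Vps16: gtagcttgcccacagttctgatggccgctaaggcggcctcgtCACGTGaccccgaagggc
Vps33a: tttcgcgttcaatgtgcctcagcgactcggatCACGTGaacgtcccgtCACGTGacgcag
Vps26a: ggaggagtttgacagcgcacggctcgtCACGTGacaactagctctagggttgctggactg

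The second is the promoter of Exoc1, the 1 exocyst gene called lower in IP than in Input and the 1 gene of the set called between the IP libraries. Its last 120 bases before the start site, chr5:76529187-76529306 on the plus strand, hold 2 CCAAT boxes, one on each strand, which the capitals mark.
Exoc1: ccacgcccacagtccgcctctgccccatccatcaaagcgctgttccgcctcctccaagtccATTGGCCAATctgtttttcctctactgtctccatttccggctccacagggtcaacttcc
A match to these letters is a description and not a binding site.

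The table holds whole-number counts, with 3 columns per group. Columns of a group differed from each other by no more than counting noise, with a chi-square per degree of freedom of 0.981 to 1.05 in 12 pairs, against 1.8 to 156 in the 54 pairs between groups. Each group was therefore counted as 1 library, the sum of its columns, so no comparison has a replicate check and no p-value is given for a gene. The libraries held 3285258 counts (IP labelled shGpr151), 4245486 (IP control), 6148538 (Input labelled shGpr151) and 6332991 (Input control). The median gene of the set had 111, 134, 26 and 31 counts in that order, so the Input values are the less precise. Gpr151 itself had 250 counts in the IP library labelled shGpr151 and 314 in IP control, a log2 ratio near 0 (interval -0.25 to 0.24). In Input it had 13 and 24 counts, a log2 ratio of -0.86 (-1.95 to 0.17). The target was thus not lower in the IP library that carries the hairpin's name, and libraries are called by their labels throughout. All 17 listed sensory neuron markers were present, and their summed level was 17400 CPM (counts per 1000000 counts of the library) in IP labelled shGpr151 and 18000 in IP control, against 1320 in Input labelled shGpr151 and 1140 in Input control.

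A log2 ratio below is of summed counts over library sizes scaled by TMM (the trimmed mean of M values), with a 95% interval for counting error. Reads were amplified by PCR, and the intervals cover no more than that counting error. A call, higher or lower, needs a difference of at least 1.5-fold and an interval that leaves out 0. The sources used here do not give how reads shared by paralogues or overlapping genes were counted, and the values of close paralogues such as Chmp1a and Chmp1b carry that doubt.

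Ribosome-bound RNA was compared with Input first, in the libraries labelled shGpr151 and in the control libraries. More of these genes were called higher in IP than lower. With shGpr151, 36 of 64 (56.2%) were called higher and 13 (20.3%) lower, where 31.1% and 30.3% of all 9073 genes were (61.4% in either direction). In control, 31 (48.4%) were called higher and 12 (18.8%) lower, where 30.2% and 29.7% of all genes were (59.9% in either direction). The median log2 ratio of the 64 genes was 0.92 with shGpr151 and 0.65 in control, beside 0.07 and 0.03 for all genes. The 2 comparisons share no library, and 30 genes were called higher in both, 83.3% of those higher with shGpr151 and 96.8% of those higher in control. Another 11 were called lower in both, 84.6% of those lower with shGpr151 and 91.7% of those lower in control, and 0 were called in opposite directions. The same overlap among all genes is not given here, so these shares do not set the 64 genes apart. The sensory neuron markers moved with the set, since 15 of 17 were called higher in IP in both comparisons. Satellite glia and Schwann markers summed to 3150 CPM (IP labelled shGpr151) and 3040 CPM (IP control), against 559 and 588 CPM in the Input libraries, with 5 of 11 called higher and 4 lower with shGpr151 and 4 and 5 in control. Macrophage markers lay at 490 and 468 CPM in IP against 466 and 442 CPM in Input, with 8 of 9 called lower on TMM sizes in each comparison, and 3 of 8 fibroblast and mural markers were called higher and 3 lower in each. The part of the cell makeup in these ratios was not tested, and in bulk samples fewer cells of a type and less RNA per cell cannot be told apart.

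These directions depend on the scale. Scaling by total counts in place of TMM sizes adds 2.12 to every log2 ratio with shGpr151 and 2.08 in control. All CPM values in the text are on total counts. On that scale 55 genes were called higher and 4 lower with shGpr151, where 77.3% and 9.34% of all genes were, and 55 and 5 in control, where 78.7% and 8.97% were. Under TMM sizes, the median-of-ratios (RLE) sizes and total counts alike, 28 genes were called higher in both comparisons and 4 lower in both (Exoc1, Snx32, Vps53 and Vps72). The other genes called lower in both on TMM sizes (Chmp2a, Exoc3l4, Snx5, Snx10, Vps25, Vps29 and Vps45) had ratios between -0.94 and 1.43 on total counts.

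**Figure D1:**
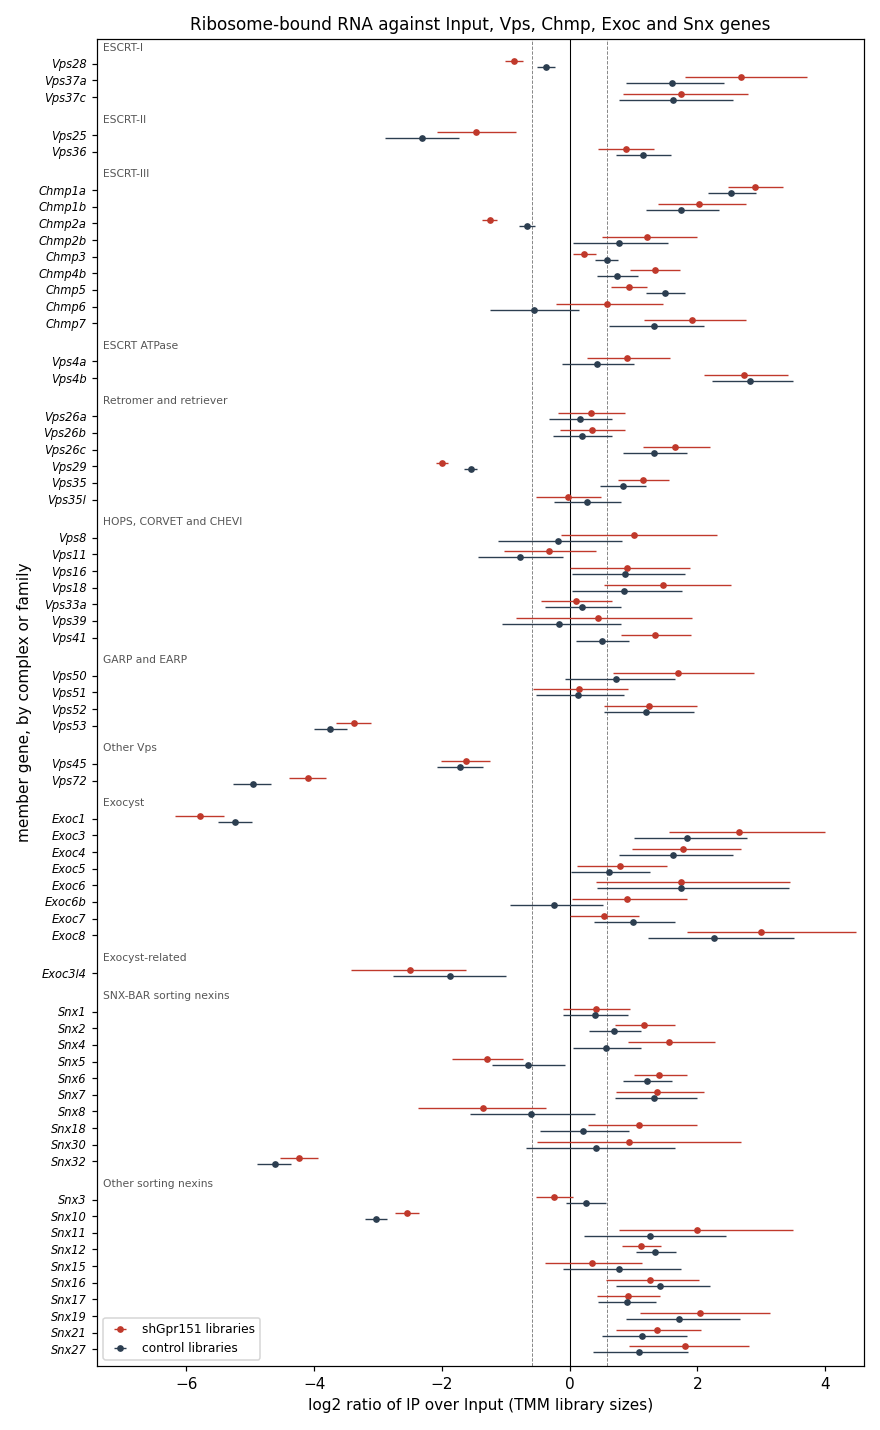
Log2 ratio of IP over Input on TMM library sizes for the 64 genes, grouped by complex or family, with the libraries labelled shGpr151 in red and the control libraries in dark grey; bars are 95% counting intervals and dashed lines mark 1.5-fold. Most genes lie to the right of 0 in both, and Exoc1, Vps72, Snx32, Vps53 and Snx10 lie at or below -2.55 in both.

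The exocyst showed the widest spread of any complex here. Of its 8 measured genes, 6 were called higher in IP and 1 lower in each comparison, with a median log2 ratio of 1.32 with shGpr151 and 1.3 in control. Exoc8 had 35, 43 and 33 counts in the columns of IP labelled shGpr151, against 1, 2 and 3 in Input labelled shGpr151, a log2 ratio of 3.0 (1.83 to 4.48). In control it had 38, 34 and 37 counts in IP against 1, 3 and 4 in Input, a log2 ratio of 2.26 (1.23 to 3.51). Every IP column of Exoc8 was far above every Input column. Exoc3 followed at 2.65 (1.56 to 4.0) with shGpr151 and 1.84 (1.01 to 2.78) in control. Exoc4 had 1.78 and 1.61, Exoc6 1.75 in both and Exoc5, a linker within the complex, 0.79 and 0.61. Exoc7, the subunit that binds phosphoinositides of the plasma membrane, was called in control alone (0.53 with shGpr151, 0.99 in control), and Exoc6b with shGpr151 alone (0.89 and -0.24).

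Exoc1 (ENSMUSG00000036435), which also binds plasma membrane lipids, went the other way. Its columns held 18, 18 and 24 counts in IP labelled shGpr151, against 506, 465 and 457 in Input labelled shGpr151. In control they held 39, 45 and 39 counts in IP against 571, 511 and 548 in Input. No IP column came near an Input column. The log2 ratios of IP over Input were -5.78 (-6.18 to -5.41) with shGpr151 and -5.24 (-5.51 to -4.97) in control, 55.1-fold and 37.7-fold lower. On total counts they were -3.67 and -3.15. Of all counts given to the 8 exocyst genes, without correction for transcript length, Exoc1 took 8.46% (exact binomial interval 6.52 to 10.8) in IP labelled shGpr151 and 14.4% (12.1 to 16.9) in IP control, against 92.9% (91.5 to 94.1) in Input labelled shGpr151 and 93.2% (92.0 to 94.4) in Input control. The other 7 together had 198 CPM in IP labelled shGpr151 and 173 CPM in IP control, against 17.7 and 18.6 CPM in the Input libraries, so they and Exoc1 moved in opposite directions. Exoc3l4, an exocyst-like gene that is no subunit of the complex, was also called lower on TMM sizes, at -2.5 (-3.43 to -1.62) with shGpr151 and -1.87 (-2.77 to -0.99) in control, on 16 to 39 counts per library (-0.38 and 0.21 on total counts).

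Exoc1 was 1 of 5 genes with over 600 counts in each Input library and a ratio of IP over Input at least 4-fold lower in both comparisons on TMM sizes, a set defined after the values were seen. The other 4 do not share a complex. The share of all genes that meets this rule is not given here. The count of 5 therefore does not set the genes described here apart from other measured genes. Among all genes the lowest log2 ratio of IP over Input on TMM sizes was -11.14 with shGpr151 and -12.73 in control. Vps72, named with the vacuolar sorting genes but a subunit of chromatin remodelling complexes, had 43, 38 and 34 counts in IP labelled shGpr151 against 281, 313 and 256 in Input labelled shGpr151, and 36, 32 and 34 in IP control against 388, 359 and 370 in Input control. Its log2 ratios were -4.1 (-4.39 to -3.81) and -4.96 (-5.27 to -4.67). Snx32, a neuronal relative of Snx5 and Snx6, had 34, 37 and 33 counts in IP against 282, 283 and 282 in Input with shGpr151, and 52, 37 and 43 against 405, 367 and 373 in control, log2 ratios of -4.24 (-4.54 to -3.94) and -4.62 (-4.9 to -4.36). In both genes every IP column was below every Input column of its treatment.

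Vps53, a subunit shared by GARP and EARP, had 48, 48 and 40 counts in IP against 202, 204 and 206 in Input with shGpr151, and 53, 45 and 56 against 253, 248 and 226 in control. Its log2 ratios were -3.38 (-3.66 to -3.11) and -3.75 (-4.01 to -3.49). Snx10, a small sorting nexin with a single lipid-binding PX domain, was the mildest of the 5, at -2.55 (-2.74 to -2.36) and -3.03 (-3.2 to -2.86). With shGpr151 its call ended on total counts (-0.43). Together the 5 genes took 5.5% of the counts of all 64 in IP labelled shGpr151 and 5.2% in IP control. Their share was 42.5% in Input labelled shGpr151 and 51.1% in Input control. The rule that chose the 5 favours such a split, so these shares describe its size and are no further result. The other 59 genes summed to 3890 CPM in IP labelled shGpr151 and 3860 CPM in IP control, against 1010 CPM in Input labelled shGpr151 and 864 CPM in Input control. CPM are on total counts, which add 2.12 (shGpr151) and 2.08 (control) to each log2 ratio against TMM sizes. These sums therefore do not show a rise in IP on TMM sizes. In the RefSeq annotation of GRCm38.p6 no other gene model overlaps Exoc1, while Snx10 overlaps a pseudogene model (Gm52883), Snx32 the coding gene 1700020D05Rik, Vps53 the long non-coding Gm46252 and Vps72 the coding gene Tmod4. The part that reads of these overlapping models play was not tested.

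**Figure D2:**
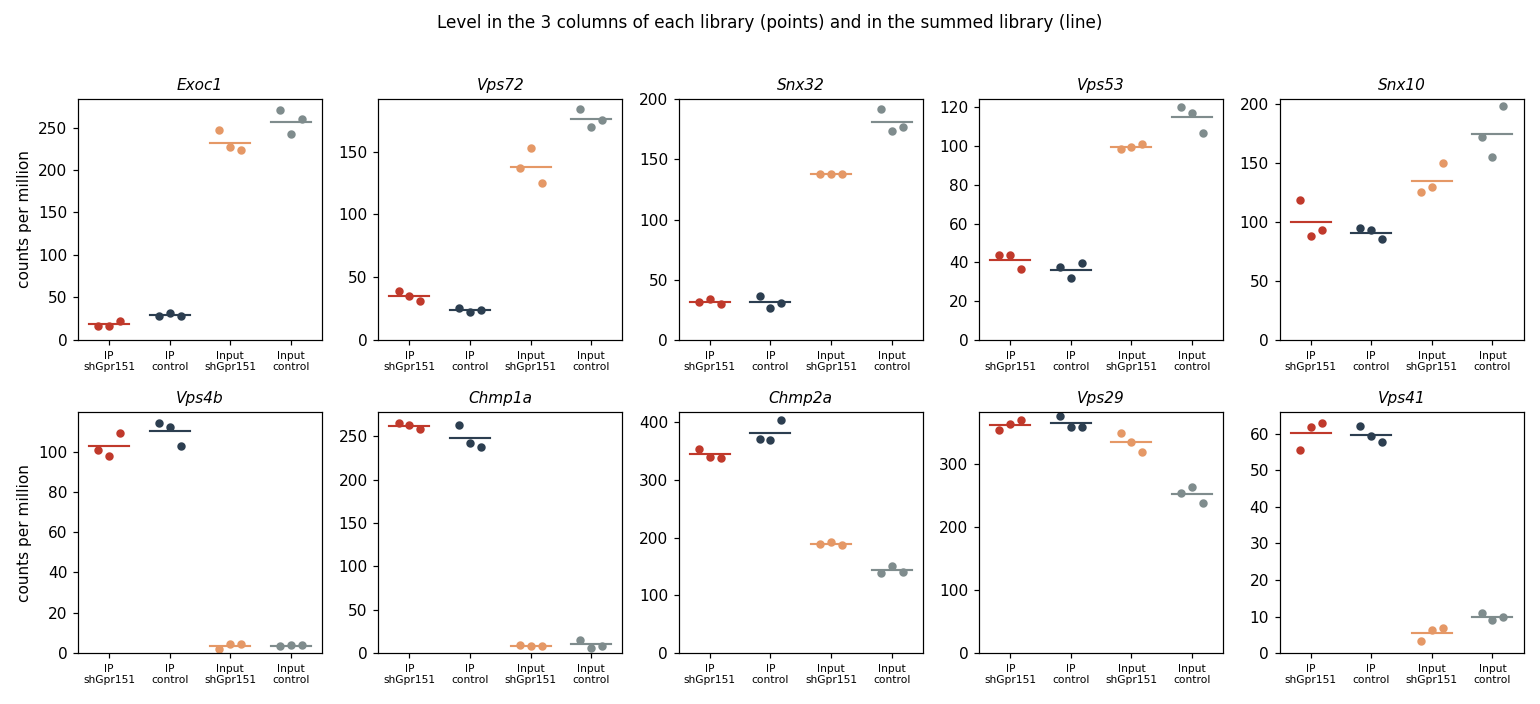
Level in CPM of 10 genes in the 4 libraries, with a point for each of the 3 columns and a line for the summed library; the vertical axes differ between panels and start at 0. The upper 5 genes are high in Input and low in IP, Vps4b, Chmp1a and Vps41 are high in IP, and Chmp2a and Vps29 are higher in IP on this scale although lower on TMM sizes.

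Within the ESCRT machinery most genes were called higher in IP. Of the 9 measured ESCRT-III genes, which build the membrane-cutting filament, 6 were called higher and 1 lower in each comparison (medians 1.21 with shGpr151 and 0.77 in control), and both lists of 6 hold Chmp1a, Chmp1b, Chmp2b, Chmp4b, Chmp5 and Chmp7. Chmp1a, which helps recruit Vps4 to the filament, had 290, 288 and 283 counts in IP against 18, 16 and 16 in Input with shGpr151, and 372, 343 and 337 against 33, 13 and 18 in control. Its log2 ratios were 2.9 (2.48 to 3.34) and 2.53 (2.17 to 2.92), among the highest of the 64. Chmp1b had 2.03 (1.38 to 2.76) and 1.75 (1.2 to 2.34). Chmp7, which also acts at the nuclear envelope, had 1.92 and 1.32, and Chmp4b, the main filament former, 1.33 and 0.74. Chmp3 (0.23 and 0.58) and Chmp6 (0.58 and -0.56) were called in neither. Chmp2a was the 1 gene called lower, at -1.25 (-1.37 to -1.13) with shGpr151 and -0.67 (-0.79 to -0.55) in control, and on total counts it was higher (0.86 and 1.41).

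Vps4b, the ATPase that dismantles ESCRT-III, had the highest ratio of the set in control. Its columns held 111, 107 and 119 counts in IP against 4, 9 and 9 in Input with shGpr151, and 161, 158 and 146 against 7, 8 and 8 in control. The log2 ratios were 2.73 (2.1 to 3.42) and 2.83 (2.23 to 3.5). Its paralogue Vps4a had 0.9 (0.27 to 1.57), called, with shGpr151 and 0.43 (-0.12 to 1.01), not called, in control. Of the ESCRT-I genes, which bind ubiquitinated cargo, Vps37a (2.68 and 1.6) and Vps37c (1.74 and 1.61) were called higher in both comparisons. Vps28 was called lower with shGpr151 alone (-0.87 and -0.37, against 1.24 and 1.71 on total counts). The ESCRT-II pair split, with Vps36 called higher (0.88 and 1.15) and Vps25 lower (-1.46 and -2.31), though on total counts Vps25 was at 0.66 and -0.22 and not called lower.

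Of the 6 retromer and retriever genes, 2 were called higher and 1 lower in each comparison on TMM sizes. Vps35, the retromer scaffold, had 1.15 (0.76 to 1.56) with shGpr151 and 0.83 (0.48 to 1.2) in control, and Vps26c of retriever 1.65 and 1.32. Vps26a, Vps26b and Vps35l lay between -0.03 and 0.35 and were called in neither. Vps29, which both complexes share, was called lower on TMM sizes at -2.0 (-2.1 to -1.9) and -1.55 (-1.65 to -1.45), but stood at 0.11 and 0.53 on total counts. Among the tethers, 3 of 7 HOPS and CORVET genes were called higher and 0 lower with shGpr151 (Vps16, Vps18 and Vps41), and 2 higher (Vps16 and Vps18) and 1 lower (Vps11, -0.78, but 1.3 on total counts) in control. Vps33a, whose promoter carries 2 E-boxes, was at 0.1 and 0.19, Vps26a at 0.33 and 0.16 and Vps16 at 0.9 and 0.87, so the 3 genes with the flanked E-box did not share a call. Of the 4 GARP and EARP genes, Vps52 was called higher in both comparisons (1.24 and 1.2), Vps50 with shGpr151 alone (1.69 and 0.73) and Vps51 in neither (0.15 and 0.13), beside the low Vps53. Vps45, a partner of SNARE proteins in endosome fusion, was called lower on TMM sizes (-1.63 and -1.72) and stood at 0.48 and 0.37 on total counts.

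Among sorting nexins with a membrane-curving BAR domain, 5 of 10 were called higher and 3 lower with shGpr151, and 3 higher and 2 lower in control. Snx6 (1.4 and 1.21), Snx7 (1.37 and 1.32) and Snx2 (1.17 and 0.7) were called higher in both. Snx5, which pairs with Snx1 or Snx2 in mammals, was called lower on TMM sizes (-1.29 and -0.65, against 0.83 and 1.43 on total counts), and Snx1 was called in neither (0.41 and 0.39). The other sorting nexins had 7 of 10 called higher and 1 lower, Snx10, in each comparison, with medians of 1.19 with shGpr151 and 1.11 in control. Snx19, an endosomal membrane protein, had 2.04 (1.1 to 3.14) and 1.71 (0.88 to 2.66). Snx27, which recruits retromer to recycling receptors, had 1.8 and 1.08, and Snx17, its counterpart for retriever, 0.91 and 0.89. Snx3, which takes the Wnt carrier Wntless to retromer, was called in neither (-0.24 and 0.25).

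Some paralogues of the same machine differed in their ratio of IP over Input in a way no scaling can alter. A library's size cancels in the difference of 2 ratios from the same libraries. Of 6 pairs compared, the difference between the log2 ratios of IP over Input left out 0 in both comparisons for 3. Pairs of unrelated genes were not compared. Vps4b exceeded Vps4a by 1.83 (0.96 to 2.71) with shGpr151 and by 2.4 (1.59 to 3.21) in control. Chmp2b exceeded Chmp2a by 2.47 (1.75 to 3.18) and 1.44 (0.74 to 2.15). For Chmp1b minus Chmp1a the difference was -0.86 (-1.63 to -0.09) and -0.78 (-1.43 to -0.13). Exoc6b minus Exoc6 left out 0 in control alone, at -0.86 (-2.45 to 0.72) with shGpr151 and -1.99 (-3.49 to -0.49) in control. Vps26b minus Vps26a was 0.03 in both, with intervals of -0.68 to 0.73 and -0.62 to 0.69, and Vps37c minus Vps37a was -0.94 (-2.2 to 0.32) and 0.01 (-1.09 to 1.11).

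**Figure D3:**
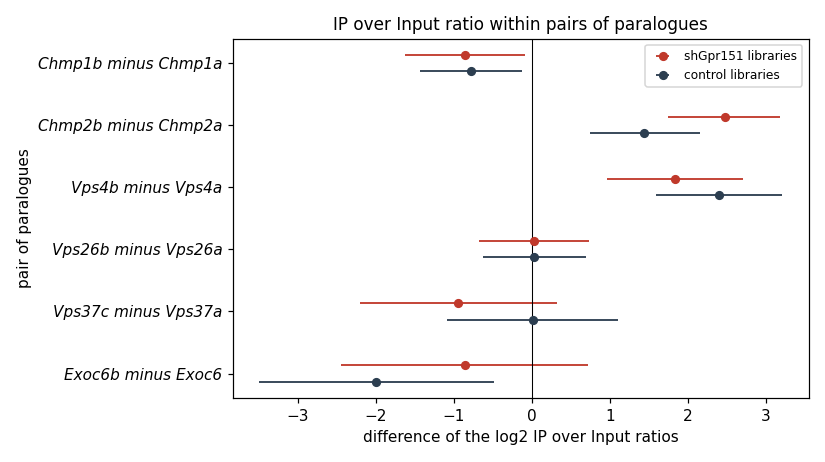
Difference of the log2 ratios of IP over Input within 6 pairs of paralogues, with the libraries labelled shGpr151 in red and the control libraries in dark grey; bars are 95% counting intervals. The Vps4 and Chmp2 pairs lie right of 0 in both, the Chmp1 pair left of it, and the Vps26 pair at 0.03.

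The comparison of the IP libraries asked which ribosome-bound transcripts differed with the hairpin's label. Of the 64 genes 0 were called higher and 1 lower, Exoc1 (1.56%), where 2.24% and 1.16% of all genes were (3.39% in either direction), with the caution that Gpr151 was not lower in this library. Exoc1 had 60 counts in IP labelled shGpr151 and 123 in IP control, or 18.3 and 29 CPM, a log2 ratio of -0.71 (-1.18 to -0.25). In raw counts, not scaled for depth, its 3 columns labelled shGpr151 (18, 18 and 24) were all below its 3 control columns (39, 45 and 39). Since the columns of a group are counted as 1 library, neither this nor leaving 1 column out is a replicate check. Since Exoc1 in control IP was 37.7-fold below its Input, whether these IP counts came from tagged ribosomes was not tested. The median of the 64 genes was 0.02, beside 0.0 for all genes, and their ratios ran up to 0.5 (Vps72). For 37 of the 64 the whole interval lay within 1.5-fold in both directions, as it did for 4120 of all 9073 genes. Among the 37 were Chmp1a at 0.04 (-0.1 to 0.17), Vps29 at -0.05 (-0.16 to 0.06), Vps35 at 0.05 (-0.17 to 0.26) and Vps4b at -0.14 (-0.35 to 0.07). Smaller differences in abundant transcripts also left out 0, such as Chmp2a at -0.19 (-0.31 to -0.08) and Vps28, chosen after its values were seen, at -0.23 (-0.36 to -0.11). With the quasi-likelihood test of edgeR on all 12 columns, which has no fold limit and compares these libraries and not the conditions, those 2 and Exoc1 were called lower and 0 higher, 3 of 64 where 7.92% of all genes were called. The call of Exoc1 held without any 1 column, and ended at a 2-fold limit or with an assumed between-library variation of 10%.

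In Input 1 of the 64 genes was called. A log2 ratio below 0 was found for 45 of them (70.3%, all genes 53.8%), with a median of -0.2 beside -0.06 for all genes. Vps41 (ENSMUSG00000041236), the HOPS subunit that links late endosomes to lysosomes, was called lower and 0 genes higher, where 4.45% of all genes were called lower and 4.2% higher (8.65% in either direction). It had 7, 13 and 14 counts in Input labelled shGpr151 against 23, 19 and 21 in Input control, a log2 ratio of -0.86 (-1.51 to -0.24). Every column labelled shGpr151 was below every control column in raw counts, which is no replicate check with 1 library per group. Without the first column labelled shGpr151 the ratio was -0.61 and no longer called. The call also ended at a 2-fold limit or with an assumed variation of 10%. In IP the same gene had 61, 68 and 69 counts with shGpr151 against 88, 84 and 82 in control, a log2 ratio of -0.04 (-0.31 to 0.24). In Input the intervals of 10 of 64 genes lay wholly within 1.5-fold (1811 of all 9073 genes), so for most a change of that size was not detectable at this depth. Markers of cell types also differed between the Input libraries. Sensory neuron markers had a median log2 ratio of -0.12, with 10 of 17 below 0 and 1 called (Snap25, -0.74). Their sum was 1320 CPM in Input labelled shGpr151 and 1140 CPM in Input control, or 520 and 554 CPM without Uchl1. Satellite glia and Schwann markers had a median of -0.32, with 9 of 11 below 0, 2 called lower (Glul, -0.65, and Cdh19, -2.14) and sums of 559 and 588 CPM. Fibroblast and mural markers had a median of -0.08 and sums of 292 and 255 CPM, with the 3 contractile genes Acta2, Tagln and Myl9 above 0 and the other 5 below. Macrophage markers had a median of 0.19 and sums of 466 and 442 CPM. The part of any of these in the ratios of the set was not tested.

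Abundant Input transcripts went in both directions by less than 1.5-fold. Chmp2a had 1163 counts with shGpr151 and 906 in control, a log2 ratio of 0.39 (0.26 to 0.51). Vps29 had 2060 and 1598, also 0.39 (0.3 to 0.49), and Vps28 711 and 602, or 0.27 (0.11 to 0.43). All 5 genes that were abundant in Input and scarce in IP had ratios below 0. Snx32 had -0.41 (-0.54 to -0.28), Snx10 -0.39 (-0.52 to -0.26), Vps72 -0.37 (-0.5 to -0.24), Vps53 -0.22 (-0.38 to -0.06) and Exoc1 -0.16 (-0.27 to -0.06). With edgeR's quasi-likelihood test these 8 and Vps41 were called, 3 higher and 6 lower, 9 of 64 where 15.4% of all genes were called.

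**Figure D4:**
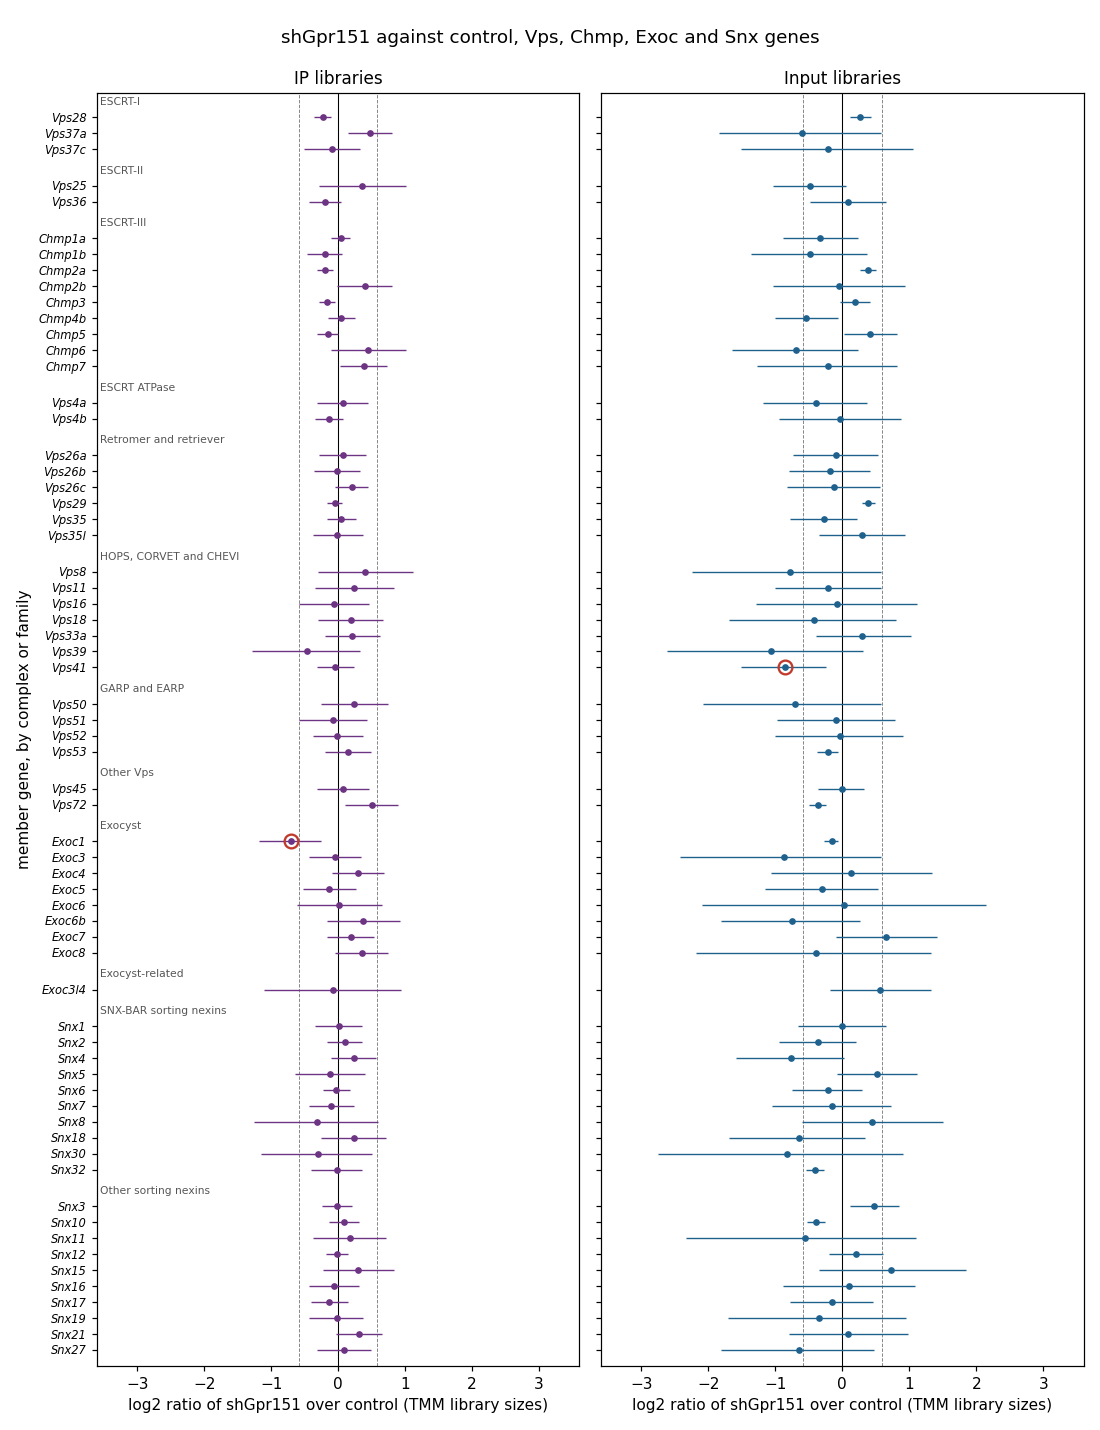
Log2 ratio of shGpr151 over control on TMM library sizes for the 64 genes, in the IP libraries (left) and the Input libraries (right); bars are 95% counting intervals, dashed lines mark 1.5-fold and red circles mark called genes. Intervals are wider in Input, and Exoc1 in IP and Vps41 in Input are the circled genes.

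The last comparison set the ratio of shGpr151 over control in IP minus the same ratio in Input, a test of whether the label goes with a shift in ribosome association beyond Input. Of the 64 genes 7 were called higher (10.9%) and 0 lower, where 8.11% and 7.02% of all genes were (15.1% in either direction). With RLE sizes the split was 6 higher and 2 lower, where 7.26% and 7.69% of all genes were. Chmp4b lost its call there at 0.56, while Chmp2a and Chmp5 passed as lower. The median was 0.21 beside 0.05 for all genes. Chmp6, which starts the ESCRT-III filament, had 59 counts in IP labelled shGpr151 and 54 in IP control, against 17 and 28 in the Input libraries, a difference of 1.14 (0.13 to 2.16). Exoc6b had 1.12 (0.04 to 2.21), Snx4, a recycling and autophagy nexin, 0.99 (0.17 to 1.82), Vps25 0.85 (0.05 to 1.65), Vps41 0.83 (0.17 to 1.49) and Chmp4b 0.59 (0.1 to 1.08). In these 6 genes the Input counts behind the difference were at most 99 in a library. None of the 6 was called between the IP libraries, and a lower Input ratio was the larger part of each difference. Their log2 ratios of shGpr151 over control, in IP and in Input, were 0.45 and -0.69 (Chmp6), 0.37 and -0.75 (Exoc6b) and 0.23 and -0.76 (Snx4). For the others they were 0.36 and -0.49 (Vps25), -0.04 and -0.86 (Vps41) and 0.05 and -0.54 (Chmp4b). Vps72 rested on more Input counts, with 115 in IP labelled shGpr151 and 102 in IP control against 850 and 1117 in Input. Its difference was 0.86 (0.46 to 1.27), from 0.5 in IP and -0.37 in Input. In control IP it was 31.1-fold below its Input on TMM sizes. As with Exoc1, whether these IP counts came from tagged ribosomes was not tested, nor was the part of reads from the overlapping Tmod4.

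Exoc1 went the other way at -0.55 (-1.0 to -0.09), under 1.5-fold and not called. So did Chmp2a at -0.58 (-0.75 to -0.42), Vps28 at -0.5 (-0.7 to -0.3) and Vps29 at -0.45 (-0.59 to -0.3), all 3 under 1.5-fold. With edgeR's quasi-likelihood test 5 of 64 were called where 12.9% of all genes were, with Vps72 and Snx10 higher and Chmp2a, Vps28 and Vps29 lower. Vps72 was thus the 1 gene called by both rules. Vps72 and Snx4 kept their call without any 1 column, whereas Chmp6 (0.92 to 1.07 where lost), Exoc6b (0.64 to 1.07), Vps25 (0.64 to 0.81) and Chmp4b (0.47 to 0.58) lost it without any of several columns and Vps41 (0.57) without the first Input column labelled shGpr151.

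Genes that work with these machines, taken from lists of known partners, were counted by the same rule. With shGpr151 against control, 0 of 52 measured partners were called in IP (all genes 3.39%), 3 of 52 (5.77%) in Input (all genes 8.65%) and 7 of 52 (13.5%) in the difference of the ratios (all genes 15.1%), the last a share near that of all genes. Of 14 ESCRT partners 0 were called between shGpr151 and control in IP or in Input. On TMM sizes, 7 were called higher and 3 lower in IP than in Input with shGpr151 (all genes 31.1% and 30.3%). In control 7 were called higher and 2 lower (all genes 30.2% and 29.7%). In the difference of the ratios Snf8, the third ESCRT-II subunit, was called higher (0.71, 0.45 to 0.98) and Tsg101, the ubiquitin-binding ESCRT-I subunit, lower (-0.74, -1.26 to -0.22). Ist1, which joins Chmp1 proteins, was called 3.2 (2.83 to 3.58) with shGpr151 and 2.67 (2.35 to 3.0) in control for IP over Input. Of 19 measured partners of retromer and retriever, 2 were called higher and 8 lower in IP than in Input with shGpr151 on TMM sizes, and 3 and 8 in control. Among these 19, 4 were called lower in the difference of the ratios and 0 higher, where 7.02% and 8.11% of all genes were: Washc3 of the actin-nucleating WASH complex (-0.7, -1.1 to -0.31) and the retriever-associated Commd3 (-0.62, -0.84 to -0.4), Commd4 (-0.6, -0.85 to -0.36) and Commd9 (-0.64, -1.11 to -0.16). Commd4 was also called higher in Input, with 576 counts with shGpr151 and 389 in control (0.59, 0.41 to 0.78). Of 11 exocyst partners, Rab8b, a vesicle GTPase, was called lower in Input (-0.84, -1.49 to -0.21) on 34 and 62 counts, and Rab11fip5 higher in the difference of the ratios (0.7, 0.04 to 1.36). Of 8 measured partners of the endosomal lipid kinase and of tethering, Fig4, a phosphoinositide phosphatase, was called higher in Input on 13 and 4 counts (1.73, 0.03 to 3.8).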

How the data were processed

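The authors deposited 1 table of raw whole-number counts (9073 Ensembl gene IDs in 12 columns, all used). The kit was a cDNA-PCR barcoding kit for nanopore sequencing, per the labels' protocols. The tools were Salmon and minimap2 and the builds mm39 and GRCm39, versions not named, per the submitters' processing notes. The smallest value is 1, and no row without a gene was found. Symbols matched 9061 IDs and 12 had none. Columns mapped to samples by their names.

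Each group was summed to 1 library. Ratios used TMM library sizes from edgeR 4.0.16 (R 4.3.3), exact conditional binomial 95% intervals (Clopper-Pearson, scipy 1.17.1) and a Wald interval for the difference of 2 ratios, over all 9073 genes with no filter. P-values of genes are not given. Replicate p-values would measure only the spread between columns, whose common biological coefficient of variation (BCV) in edgeR was 1.22%. Alternatives were RLE sizes, total counts, a mean of at least 20 counts, a lower fold and a fold of 2 in place of 1.5, edgeR's quasi-likelihood test with and without a replicate block (Benjamini-Hochberg, 0.05), DESeq2 1.42.0, edgeR's likelihood ratio test at a preset BCV of 10% and each column left out. The scripts were tested on simulated data. Promoters of 1 chromosome were left out of the search. Figures used matplotlib 3.10.9.

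The members and gene lists were chosen with earlier results of these data known. Named were all genes called in a comparison of shGpr151 with control (at most 12), the 6 called genes with the largest ratio each way for IP over Input, the core exocyst, retromer, ESCRT-III and Vps4 genes, Gpr151, and at most 4 called partners per list; other genes are named as examples of their complex.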

Additional observations from a re-analysis of the deposited data

Results flagged for a closer look

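For 7 genes the ratio of shGpr151 over control differed between IP and Input, by an interval on counting error that leaves out 0 and a difference of at least 1.5-fold. On the log2 scale the difference, IP minus Input, was 1.14 for Chmp6, 1.12 for Exoc6b, 0.99 for Snx4, 0.86 for Vps72, 0.85 for Vps25, 0.83 for Vps41 and 0.59 for Chmp4b. With 1 library per group the difference was tested on counting error alone, and 15.1% of all genes met the same rule.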

How the results depend on the processing

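With 1 library per group nothing here has a replicate check, and Input depth limits most of the 64 genes. Counts of genes called for IP over Input in either direction stayed within 1.5 times under every alternative run. They were 31 to 60 in control and 34 to 59 with shGpr151, the 34 under the count filter, which left 42 genes. The split by direction did move. Total counts took it from 31 higher and 12 lower to 55 and 5 in control, and from 36 and 13 to 55 and 4 with shGpr151. For shGpr151 against control in IP, in Input and in their difference (1, 1 and 7 called), the lower fold limit gave 4, 9 and 15 and 2-fold gave 0, 0 and 2. edgeR's quasi-likelihood test gave 3 in IP and 9 in Input, DESeq2 3, 7 and 4, and edgeR's likelihood ratio test at a preset BCV of 10% gave 0, 0 and 0 (1, 1 and 2 at an unadjusted p under 0.05). A mean of at least 20 counts left 4 calls in the difference. With the replicate number as a block edgeR's quasi-likelihood test gave 3 in IP, 8 in Input and 5 in the difference. Beyond those stated above, shares of all genes under these fold limits, tests and the count filter are not given here. These counts therefore do not set the 64 genes apart. The numbers do not pair the samples, since same-numbered columns had correlations of -0.013 to 0.009 in 12 pairs. Leaving out 1 column gave 1 call in IP each time, 1 to 4 in Input, 4 to 9 in the difference, 38 to 47 for IP over Input in control and 45 to 50 with shGpr151. The Input call of Vps41 ended without the first Input column labelled shGpr151 (-0.61). In the difference, Vps41, Chmp6, Exoc6b, Vps25 and Chmp4b each lost the call without at least 1 column. For single genes, 330 alternatives were run on 33 pairs of a named gene and a comparison. They covered library sizes, the count filter and columns left out, and not the fold limits or other tests. Of these 330, 295 kept the call, 35 lost it and 0 reversed. On total counts Vps25 in control (-0.22), and Snx10 (-0.43) and Exoc3l4 (-0.38) with shGpr151, were no longer called lower. Genes outside these pairs did change sign on total counts, such as Chmp2a in control (-0.67 on TMM sizes, 1.41 on total counts). The cause was not tested.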
